A study of Mus musculus with 4 samples.

Results

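The Hox genes are homeobox transcription factor genes that lie in 4 clusters, Hoxa, Hoxb, Hoxc and Hoxd. They were taken here as every gene row whose symbol is Hox, a cluster letter and a paralog number, with no filter on expression. This gave 39 genes of the 25239 symbols in the tables, 11 in Hoxa, 10 in Hoxb, 9 in Hoxc and 9 in Hoxd. On the mm10 build of the files the Hoxa genes span chr6:52155367-52260880, the Hoxb genes chr11:96194316-96368253, the Hoxc genes chr15:102921131-103036852 and the Hoxd genes chr2:74668225-74765142. Their levels were read in mouse cochleovestibular ganglia (CVG), the ganglion that supplies the cochlea and the vestibular organs, at embryonic day 11.5. The study compared 4 genotypes with 1 library each: Isl1CKO (conditional loss of Isl1), Pou4f1KO (loss of Pou4f1), DKO (both) and control. Isl1 and Pou4f1 encode LIM-homeodomain and POU-homeodomain transcription factors of sensory neurons. The ganglia were dissected and frozen, so each library holds the neurons together with any glia, epithelium, mesenchyme or brain tissue that came with them. The Cre driver of the conditional allele, the number of embryos in a library and any pooling are not given in the sources used here.

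Hox genes are arranged in the order in which they are used along the body: genes with low paralog numbers sit at the 3′ end of a cluster and are expressed furthest forward, and genes with high numbers are expressed towards the tail. In the embryonic hindbrain the front limits of paralog groups 1 to 4 fall at boundaries between segments called rhombomeres, and retinoic acid is among the signals that set them. The otic vesicle, from which CVG neurons arise, forms beside the hindbrain, and neural crest cells from the same level add the glia of the ganglion. Hox proteins bind DNA with cofactors of the TALE class, PBX and MEIS, and Polycomb complexes keep the clusters silent where they are not used.

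In the library labelled Pou4f1KO, 10 of the 39 Hox genes were at least 2-fold higher than in control and none was lower, where 0.582% of all 25239 symbols were higher and 1.03% lower. All 10 belong to paralog groups 1 to 5. The library labelled DKO carries the same Pou4f1 label but showed no Hox gene past 2-fold against control, where 0.602% of all symbols were higher and 1.39% lower. Neither did the library labelled Isl1CKO, where 0.349% of all symbols were higher and 0.368% lower than in control. Summed over all 39 genes, Hox transcripts came to 37.0 TPM, a unit of transcript abundance that corrects for gene length and library size, in the library labelled Isl1CKO, 103.8 TPM in Pou4f1KO, 43.5 TPM in the library labelled DKO and 36.8 TPM in control. There is no replicate check on any of these differences, since each genotype is 1 library. A gene was called at 2-fold on the log2 ratio of (TPM + 1), and no test or p-value was possible.

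The genotype labels were first read against the targeted genes. Pou4f1 stood at 188 TPM in the library labelled Isl1CKO, 16.6 TPM in Pou4f1KO, 14.6 TPM in the library labelled DKO and 146 TPM in control, low in both libraries labelled as lacking it. Isl1 stood at 854 TPM in the library labelled Isl1CKO, 340 TPM in Pou4f1KO, 579 TPM in the library labelled DKO and 450 TPM in control. It was therefore not lower in the libraries labelled as lacking Isl1. A gene-level value can stay high where only a segment of a conditional allele is removed, and directions drawn from those libraries rest on the label. All 20 pan-neuronal markers and all 15 CVG neuron markers reached 1 TPM in all 4 libraries. So did all 15 glial and neural crest markers, which include Sox10 at 145 TPM in the library labelled Isl1CKO, 159 TPM in Pou4f1KO, 147 TPM in the library labelled DKO and 160 TPM in control. RNA of glial and neural crest markers was thus present under the label of CVG neurons. Aligned sequence was estimated at 13.6 gigabases in the library labelled Isl1CKO, 16.6 in Pou4f1KO, 16.1 in the library labelled DKO and 16.6 in control. By that estimate 1 TPM corresponded to a mean coverage of 4.95 to 5.93 reads per base.

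In every library the Hox signal came mostly from 3 genes of paralog groups 2 and 3, Hoxa2, Hoxb2 and Hoxb3. Together they gave 89.5% of summed Hox TPM in the library labelled Isl1CKO, 63.3% in Pou4f1KO, 92.3% in the library labelled DKO and 90.2% in control. They were the only members at 1 TPM or more in all 4 libraries. Another 8 members reached 1 TPM in Pou4f1KO alone, so reaching that level already required them to be higher there. The remaining 28 stayed below 1 TPM in every library.

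Paralog group 1 acts first in hindbrain segmentation. Hoxb1, which gives rhombomere 4 its identity, had 0.137 TPM in the library labelled Isl1CKO, 1.68 TPM in Pou4f1KO, 0.050 TPM in the library labelled DKO and 0.180 TPM in control. Its level in Pou4f1KO stood above the other 3, with a log2 ratio to control of 1.18. Hoxd1 had 0.590 TPM in the library labelled Isl1CKO, 0.367 TPM in Pou4f1KO, 0.208 TPM in the library labelled DKO and 0.219 TPM in control. Hoxd1 did not single out Pou4f1KO and was highest in the library labelled Isl1CKO.

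Paralog group 2 holds Hoxa2, which patterns rhombomere 2 and the second branchial arch, and Hoxb2, which acts in rhombomere 4 and its facial motor neurons. Hoxa2 had 13.2 TPM in the library labelled Isl1CKO, 21.2 TPM in Pou4f1KO, 19.2 TPM in the library labelled DKO and 15.7 TPM in control. It was the highest Hox gene in the library labelled Isl1CKO, in the library labelled DKO and in control, and it moved little: the log2 ratios to control were −0.23 in the library labelled Isl1CKO, 0.41 in Pou4f1KO and 0.28 in the library labelled DKO. Hoxb2 had 10.8 TPM in the library labelled Isl1CKO, 19.6 TPM in Pou4f1KO, 12.6 TPM in the library labelled DKO and 8.50 TPM in control. Its log2 ratio in Pou4f1KO against control was 1.12, close to the 2-fold line, and with libraries scaled to equal pan-neuronal genes it was 0.85, below 2-fold.

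Paralog group 3 marks the caudal hindbrain and the caudal branchial arches. Hoxb3, which restricts Hoxb1 to its own segment, had 9.19 TPM in the library labelled Isl1CKO, 24.9 TPM in Pou4f1KO, 8.28 TPM in the library labelled DKO and 9.01 TPM in control. It was the highest Hox gene in Pou4f1KO, and the other 3 libraries lay within about 1 TPM of each other. Hoxa3, needed for the thymus and parathyroid, had 0.822 TPM in the library labelled Isl1CKO, 5.11 TPM in Pou4f1KO, 0.539 TPM in the library labelled DKO and 0.621 TPM in control. Hoxd3, which shapes the first neck vertebra, had 0.148 TPM in the library labelled Isl1CKO, 10.1 TPM in Pou4f1KO, 0.261 TPM in the library labelled DKO and 0.160 TPM in control. The log2 ratios in Pou4f1KO against control were 1.37 for Hoxb3, 1.92 for Hoxa3 and 3.26 for Hoxd3. That of Hoxd3 ranked 5 among all 25239 symbols, and by TPM alone its ratio was 63.3-fold.

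All 4 genes of paralog group 4, whose front limit lies in the caudal hindbrain and which pattern neck vertebrae, were past 2-fold in Pou4f1KO. Hoxa4 had 0.196 TPM in the library labelled Isl1CKO, 2.98 TPM in Pou4f1KO, 0.031 TPM in the library labelled DKO and 0.149 TPM in control. Hoxb4, also known for its action on blood stem cells, had 0.506 TPM in the library labelled Isl1CKO, 4.57 TPM in Pou4f1KO, 0.622 TPM in the library labelled DKO and 0.285 TPM in control. Both were above 1 TPM in Pou4f1KO alone, with log2 ratios to control of 1.79 for Hoxa4 and 2.12 for Hoxb4. Hoxc4 had 0.030 TPM in the library labelled Isl1CKO, 6.43 TPM in Pou4f1KO, 0.198 TPM in the library labelled DKO and 0.120 TPM in control. Hoxd4 had 0.145 TPM in the library labelled Isl1CKO, 4.03 TPM in Pou4f1KO, 0.295 TPM in the library labelled DKO and 0.143 TPM in control. The log2 ratios in Pou4f1KO were 2.73 for Hoxc4, which ranked 7 of all symbols, and 2.14 for Hoxd4. The low side of these ratios rests on few reads: Hoxc4 had a mean coverage of 37.1 reads per base in Pou4f1KO and 0.710 in control.

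The group 5 genes act at cervical levels, among them Hoxa5 and Hoxc5 in phrenic motor neurons. Hoxc5 had 0.089 TPM in the library labelled Isl1CKO, 1.17 TPM in Pou4f1KO, 0.071 TPM in the library labelled DKO and 0.037 TPM in control, a log2 ratio of 1.06 in Pou4f1KO against control. Hoxb5 was listed at 0 in the library labelled Isl1CKO and had 0.471 TPM in Pou4f1KO, 0.070 TPM in the library labelled DKO and 0.046 TPM in control. It was highest in Pou4f1KO too, but stayed below 1 TPM and did not pass 2-fold. Paralog groups 6 to 13, which pattern the trunk, the limbs and the tail, hold 24 members, and none exceeded 0.261 TPM in any library. The highest values among them were 0.250 TPM in the library labelled Isl1CKO, 0.261 TPM in Pou4f1KO, 0.127 TPM in the library labelled DKO and 0.158 TPM in control. Of these 24 genes, 14 were listed at 0 in the library labelled Isl1CKO, 15 in Pou4f1KO, 14 in the library labelled DKO and 10 in control. Hoxa13, Hoxb13, Hoxc11 and Hoxc12 were listed at 0 in all 4 libraries, and a value of 0 in these tables says only that no level was assigned.

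**Figure D1:**
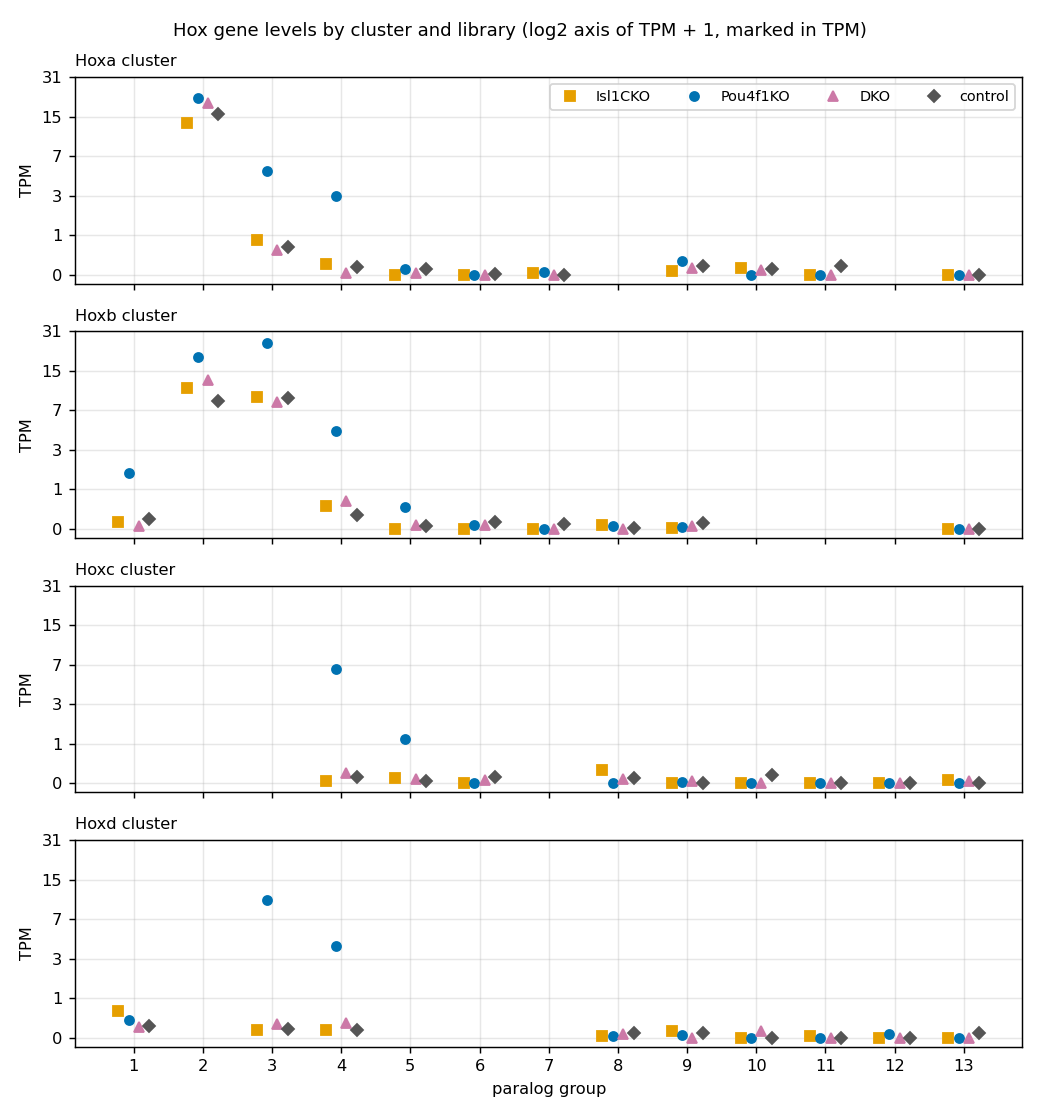
Level of 38 Hox genes (TPM, on a log2 axis of TPM + 1) by paralog group, 1 panel per cluster, with 1 point per library. Pou4f1KO stands apart from the other 3 libraries in paralog groups 3 and 4 and at Hoxb1 and Hoxc5, and all libraries lie near 0 from paralog group 6 on.

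Some of these rows cannot be fully told apart. In the GENCODE M21 annotation Hoxd3 and Hoxd4 share 388 exon bases and Hoxc5 and Hoxc10 share 166, and how the authors' quantification split shared reads is not stated. Summed as pairs, Hoxd3 with Hoxd4 had 0.293 TPM in the library labelled Isl1CKO, 14.2 TPM in Pou4f1KO, 0.556 TPM in the library labelled DKO and 0.303 TPM in control. The deposited Hoxa3 row also spans Hoxa4, Hoxa5 and Hoxa6. The sum of Hoxa3 and Hoxa4 was 1.02 TPM in the library labelled Isl1CKO, 8.09 TPM in Pou4f1KO, 0.570 TPM in the library labelled DKO and 0.769 TPM in control. Both sums were therefore highest in Pou4f1KO whichever way the reads were divided within a pair. Hoxc5 was not summed with Hoxc10, which had 0.158 TPM in control and was listed at 0 in the libraries labelled Isl1CKO, Pou4f1KO and DKO. Counting that control level with the 0.037 TPM of Hoxc5 would lower the log2 ratio of 1.06 in Pou4f1KO against control. The 2-fold call of Hoxc5 can therefore depend on how shared reads were split. Its level of 1.17 TPM in Pou4f1KO would still be the highest.

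By cluster, the ratio of Pou4f1KO to control was largest in Hoxd and Hoxc, which were low in the other 3 libraries. The Hoxd cluster summed to 1.05 TPM in the library labelled Isl1CKO, 14.7 TPM in Pou4f1KO, 0.956 TPM in the library labelled DKO and 0.761 TPM in control. The Hoxc cluster summed to 0.428 TPM in the library labelled Isl1CKO, 7.62 TPM in Pou4f1KO, 0.501 TPM in the library labelled DKO and 0.525 TPM in control. By summed TPM with no pseudocount, Pou4f1KO was 19.3-fold over control in Hoxd and 14.5-fold in Hoxc. Both of these ratios rest on control sums below 1 TPM and are uncertain in size. The Hoxb cluster summed to 20.7 TPM in the library labelled Isl1CKO, 51.4 TPM in Pou4f1KO, 21.7 TPM in the library labelled DKO and 18.3 TPM in control, a 2.80-fold ratio in Pou4f1KO. The Hoxa cluster summed to 14.9 TPM in the library labelled Isl1CKO, 30.1 TPM in Pou4f1KO, 20.3 TPM in the library labelled DKO and 17.2 TPM in control, the smallest ratio of the 4 clusters at 1.75-fold.

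The make-up by paralog group differed as well. Group 4 gave 2.37% of Hox TPM in the library labelled Isl1CKO, 17.3% in Pou4f1KO, 2.64% in the library labelled DKO and 1.89% in control. Group 3 gave 27.4% in the library labelled Isl1CKO, 38.7% in Pou4f1KO, 20.9% in the library labelled DKO and 26.6% in control. Group 2 had the largest share in each library, but it was 39.3% in Pou4f1KO, against 64.7% in the library labelled Isl1CKO, 73.2% in the library labelled DKO and 65.7% in control. Its level was not lower in Pou4f1KO: 40.9 TPM there, against 24.2 TPM in control.

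**Figure D2:**
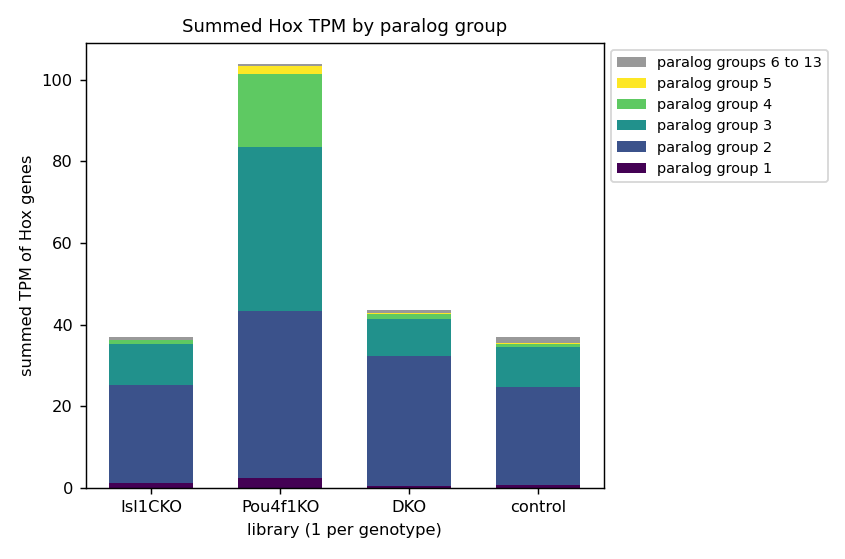
Summed TPM of the Hox genes in each library, stacked by paralog group, with 1 bar per library. The Pou4f1KO bar reaches 103.8 TPM and the other 3 lie between 36.8 and 43.5 TPM, and the part from group 4 is visible mainly in Pou4f1KO.

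The median log2 ratio over the 39 genes in Pou4f1KO against control was 0.02 and that over all symbols was 0.00, since most Hox genes were near 0 TPM in both libraries. The 10 genes past 2-fold were Hoxa3, Hoxa4, Hoxb1, Hoxb2, Hoxb3, Hoxb4, Hoxc4, Hoxc5, Hoxd3 and Hoxd4. With FPKM in place of TPM and the same pseudocount, 6 of them were past 2-fold, where 0.281% of all symbols were higher, and Hoxa4, Hoxb1, Hoxb2 and Hoxc5 were not. The largest ratio among the other 29 was 0.49, at Hoxb5. In the library labelled Isl1CKO against control the ratios of the 39 genes ran between −0.23 at Hoxa2 and 0.38 at Hoxd1. In the library labelled DKO against control they ran between −0.21 at Hoxc10 and 0.52 at Hoxb2.

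**Figure D3:**
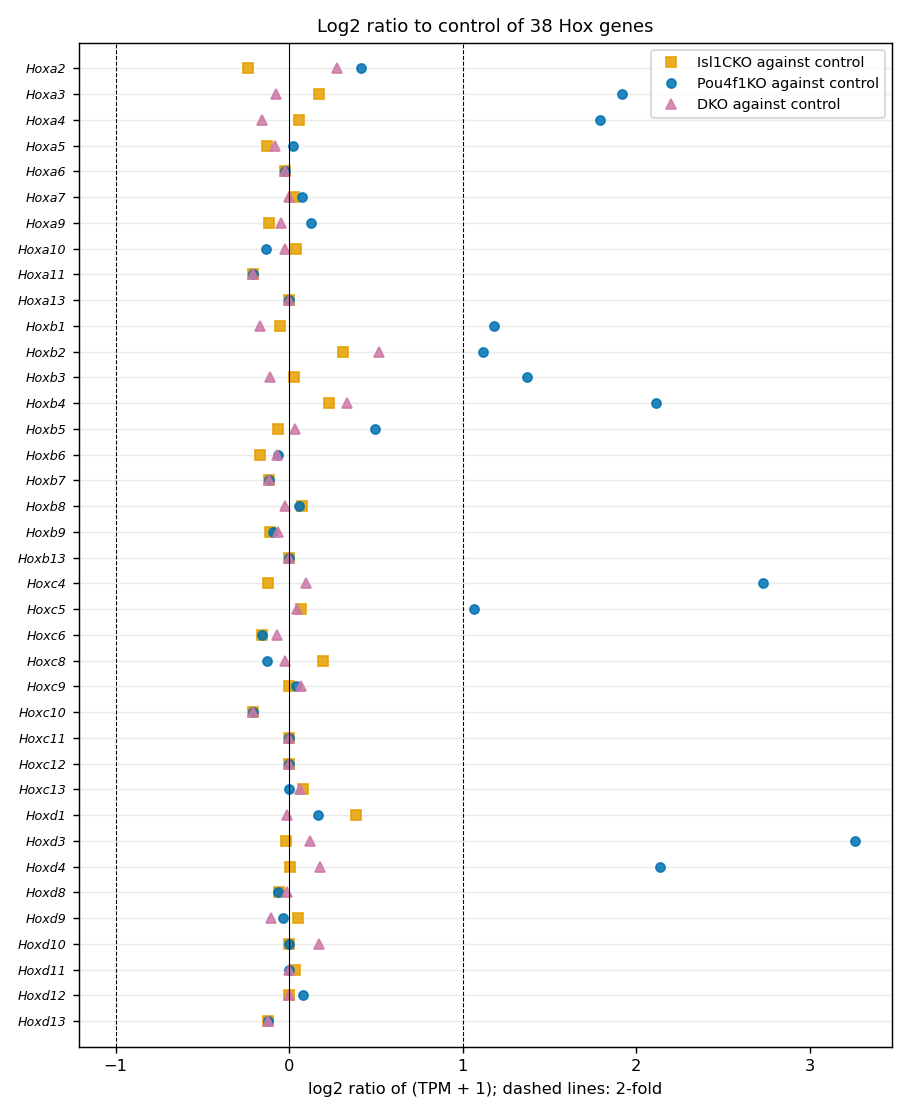
Log2 ratio of (TPM + 1) to control for 38 Hox genes in the libraries labelled Isl1CKO, Pou4f1KO and DKO, with 1 point per library and dashed lines at 2-fold. The 10 points beyond the right line are all from Pou4f1KO, and no point lies beyond the left line.

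The Pou4f1 label can be read in both Isl1 backgrounds, since Pou4f1KO against control and DKO against Isl1CKO use different libraries. Between the libraries labelled DKO and Isl1CKO no Hox gene passed 2-fold, with 0.519% of all symbols higher and 0.733% lower in the library labelled DKO. Hoxd3 had a log2 ratio of 3.26 in Pou4f1KO against control and 0.14 in the library labelled DKO against that labelled Isl1CKO. In the same 2 comparisons the ratios were 2.73 and 0.22 for Hoxc4, 2.14 and 0.18 for Hoxd4, and 2.12 and 0.11 for Hoxb4. Hoxa2, with 0.41 and 0.51, was the one gene of the 11 at 1 TPM or more whose ratios lay close together. Set directly against Pou4f1KO, the library labelled DKO was at least 2-fold lower at 9 Hox genes and higher at none, where 0.666% of all symbols were lower and 0.384% higher. These 9 are the 10 named above without Hoxb2, whose ratio was −0.60. The comparison shares the Pou4f1KO library with that against control, so the 9 genes are not a second observation of it.

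A departure from additivity was computed by adding the log2 ratios to control of the libraries labelled Isl1CKO and Pou4f1KO and taking that sum from the ratio of the library labelled DKO. It was past 2-fold below 0 for 9 Hox genes and above 0 for none, where 0.666% of all symbols were below and 0.884% above. The values were −3.13 for Hoxd3, −2.51 for Hoxc4, −1.96 for Hoxd4 and 0.10 for Hoxa2, and for summed Hox TPM the value was −1.25. All 4 libraries enter this quantity, Pou4f1KO included.

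**Figure D4:**
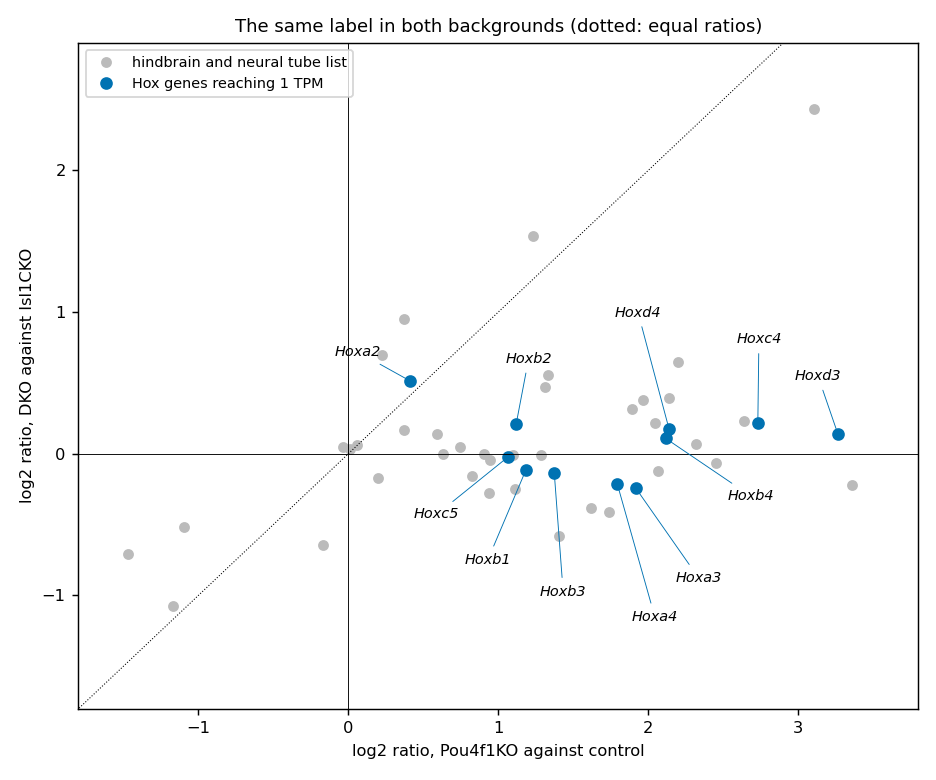
Log2 ratio of (TPM + 1) in Pou4f1KO against control (horizontal axis) and in the library labelled DKO against that labelled Isl1CKO (vertical axis) for the 11 Hox genes reaching 1 TPM (blue) and the 38 hindbrain and neural tube markers (grey). Of the Hox genes, Hoxa2 lies near the dotted line of equal ratios, and the other 10 lie to the right of it, with vertical values between −0.24 and 0.22.

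Promoter sequence is shown for the 4 genes with the largest ratios in Pou4f1KO among those with a promoter entry, and for Hoxa2 as the highly expressed member that moved little. RefSeq promoters on GRCm38.p6, the assembly of which mm10 is the UCSC name, were held for 22 of the 39 genes, as 24 promoters. Each sequence gives the 250 bases before the start site, 5′ to 3′ on the gene's strand, with motif matches in capitals. Capitals mark TGACCT, the reverse complement of the nuclear receptor half-site AGGTCA that retinoic acid receptors recognise, in the first 4, and a PBX-HOX match to TGATNNAT, found on the opposite strand, in Hoxa2.
Hoxd3 promoter, chr2:74711743-74711992, plus strand: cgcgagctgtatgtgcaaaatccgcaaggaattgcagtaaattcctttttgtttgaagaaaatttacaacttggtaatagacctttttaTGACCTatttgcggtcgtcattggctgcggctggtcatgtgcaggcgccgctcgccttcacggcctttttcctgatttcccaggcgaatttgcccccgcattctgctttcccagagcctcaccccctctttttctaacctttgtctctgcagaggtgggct
Hoxc4 promoter, chr15:103034145-103034394, plus strand: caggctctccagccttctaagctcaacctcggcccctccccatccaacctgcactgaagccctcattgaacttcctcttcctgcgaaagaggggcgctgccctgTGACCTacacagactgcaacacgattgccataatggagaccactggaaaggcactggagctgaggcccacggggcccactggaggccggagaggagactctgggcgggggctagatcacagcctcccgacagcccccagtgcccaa
Hoxd4 promoter, chr2:74721728-74721977, plus strand: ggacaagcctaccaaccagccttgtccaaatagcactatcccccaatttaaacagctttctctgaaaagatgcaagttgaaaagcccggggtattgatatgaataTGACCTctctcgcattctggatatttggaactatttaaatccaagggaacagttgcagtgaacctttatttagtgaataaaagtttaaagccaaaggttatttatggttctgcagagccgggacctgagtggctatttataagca
Hoxb4 promoter, chr11:96318017-96318266, plus strand: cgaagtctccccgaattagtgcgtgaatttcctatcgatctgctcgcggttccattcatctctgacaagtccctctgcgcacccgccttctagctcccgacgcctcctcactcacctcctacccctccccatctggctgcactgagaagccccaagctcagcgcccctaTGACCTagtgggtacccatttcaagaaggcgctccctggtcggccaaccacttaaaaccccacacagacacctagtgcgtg
Hoxa2 promoter, chr6:52164832-52165081, minus strand: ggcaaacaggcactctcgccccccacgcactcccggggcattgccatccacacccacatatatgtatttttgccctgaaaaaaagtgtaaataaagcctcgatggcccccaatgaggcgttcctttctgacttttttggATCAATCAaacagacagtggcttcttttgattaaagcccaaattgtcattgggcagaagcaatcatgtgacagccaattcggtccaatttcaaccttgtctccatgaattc

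The half-site match began 161 bases before the start site of Hoxd3, 146 before that of Hoxc4, 145 before that of Hoxd4 and 81 before that of Hoxb4, in each case on the opposite strand. Over windows of 300 bases that also take in the 50 bases after the start, and searching both strands, AGGTCA was in 29.2% of the 24 Hox promoters and in 16.3% of all 32851 promoters. It was in 4 of 6 promoters of genes called higher in Pou4f1KO and in 3 of 18 promoters of other Hox genes. TGATNNAT was in 16.7% of Hox promoters and in 8.85% of all, and the homeodomain core TAATTA was in 8.33% of Hox promoters and in 5.29% of all. By the same split, TGATNNAT was in 1 of 6 promoters of genes called higher and in 3 of 18 others. TAATTA was in 0 of 6 and in 2 of 18. No match overlapped another in the Hox promoters. These are matches of letters in a short window, described without a test, and binding was not measured.

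Non-coding genes inside the clusters were read beside their coding neighbours. Hotairm1, which lies on the 3′ side of Hoxa2, had 3.93 TPM in the library labelled Isl1CKO, 4.70 TPM in Pou4f1KO, 4.62 TPM in the library labelled DKO and 3.56 TPM in control, so all 4 libraries were close. Hoxaas2, next to Hoxa2, overlaps an end of the deposited Hoxa3 row on the opposite strand. It had 4.19 TPM in the library labelled Isl1CKO, 8.18 TPM in Pou4f1KO, 6.67 TPM in the library labelled DKO and 5.03 TPM in control. Its log2 ratio was 0.61 in Pou4f1KO against control. Hoxb3os, antisense to Hoxb3 and Hoxb2, had 4.60 TPM in the library labelled Isl1CKO, 9.92 TPM in Pou4f1KO, 3.86 TPM in the library labelled DKO and 5.39 TPM in control. The kit keeps strand, but the strand setting of the quantification is not stated. Antisense and sense reads therefore cannot be told apart where these rows overlap Hoxa3, Hoxb2 and Hoxb3. Hoxb3os was highest in Pou4f1KO but below 2-fold against control, at 0.77.

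Within 20 kb of the clusters lay 26 other symbols, of which 11 were listed at 0 in all libraries and 6 reached 1 TPM in a library. At least 2-fold higher in Pou4f1KO than in control were 3 of them, where 0.582% of all symbols were higher. These 3 are named here after their values were seen. Haglr, which lies in the Hoxd cluster beside Hoxd3 and on the opposite strand, had 0.094 TPM in the library labelled Isl1CKO, 2.08 TPM in Pou4f1KO, 0.066 TPM in the library labelled DKO and 0.178 TPM in control. The other two, 5730596B20Rik and Gm15050, lie within the span of the deposited Hoxa3 row and had their highest level there too: 5730596B20Rik had 1.70 TPM in Pou4f1KO against 0.032 TPM in control, and Gm15050 had 2.17 TPM in Pou4f1KO against 0.509 TPM in control. Genes that flank the clusters were mostly below 2-fold: of 15 measured 1 was higher in Pou4f1KO, with a median log2 ratio of 0.09. That gene was Evx1, a homeobox gene beyond the 5′ end of the Hoxa cluster that also marks a class of spinal and hindbrain interneurons, with 0.543 TPM in the library labelled Isl1CKO, 2.91 TPM in Pou4f1KO, 0.181 TPM in the library labelled DKO and 0.277 TPM in control.

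Known regulators and partners of Hox genes were read as lists. Of 11 genes for TALE cofactors and their relatives none passed 2-fold in any comparison, with a median log2 ratio of 0.17 in Pou4f1KO against control. The largest was that of Pbx4, 0.57, and Meis1, which encodes a HOX cofactor, had 0.56. Of 26 Polycomb and Trithorax genes none passed in any comparison, with a median of 0.05 in Pou4f1KO. In these comparisons 0.349% to 1.39% of all symbols were past 2-fold in each direction. None of 11 or of 26 genes is close to those shares. Of all symbols 1.03% were lower in Pou4f1KO than in control. Of 19 hindbrain segment regulators 2 were lower and none was higher there, with a median of 0.00. Those were Otx2, a forebrain and midbrain factor that also serves the otic epithelium, and Gbx2, a factor of the front hindbrain and otic vesicle. Otx2 had 8.75 TPM in the library labelled Isl1CKO, 3.53 TPM in Pou4f1KO, 6.25 TPM in the library labelled DKO and 10.2 TPM in control. Gbx2 had 2.82 TPM in the library labelled Isl1CKO, 2.45 TPM in Pou4f1KO, 0.79 TPM in the library labelled DKO and 6.66 TPM in control. Gbx2 was thus past 2-fold lower than control in the libraries labelled Isl1CKO and DKO as well, and lowest in DKO. Against control, 1 of the 19 was lower in the library labelled Isl1CKO and 2 in that labelled DKO, with none higher. Cdx2 and Cdx4, given here for their role as activators of posterior Hox genes, were listed at 0 in all libraries.

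Of 18 genes of the retinoic acid pathway 2 were past 2-fold higher in Pou4f1KO than in control and 3 lower, with a median of −0.19. Of all symbols 0.582% were higher and 1.03% lower. Aldh1a1, which makes retinoic acid, had 0.200 TPM in the library labelled Isl1CKO, 6.88 TPM in Pou4f1KO, 0.104 TPM in the library labelled DKO and 1.74 TPM in control. Cyp26c1 and Cyp26a1 encode enzymes that degrade it. Cyp26c1 had 7.95 TPM in the library labelled Isl1CKO, 2.16 TPM in Pou4f1KO, 20.8 TPM in the library labelled DKO and 19.7 TPM in control, lowest in Pou4f1KO. Cyp26a1 had 5.07 TPM in the library labelled Isl1CKO, 4.33 TPM in Pou4f1KO, 20.96 TPM in the library labelled DKO and 16.3 TPM in control. Its levels in Pou4f1KO and in the library labelled Isl1CKO were both below that in control. Crabp1, a retinoic acid binding protein of hindbrain and neural crest, had 50.6 TPM in the library labelled Isl1CKO, 103 TPM in Pou4f1KO, 64.0 TPM in the library labelled DKO and 41.0 TPM in control. The pathway's genes did not share a direction by role, as a pair named after their values were seen shows. Aldh1a3, another enzyme that makes retinoic acid and the third gene past 2-fold lower in Pou4f1KO, had 13.1 TPM in the library labelled Isl1CKO, 6.998 TPM in Pou4f1KO, 5.26 TPM in the library labelled DKO and 17.6 TPM in control. Cyp26b1, another enzyme that degrades it, had 19.99 TPM in the library labelled Isl1CKO, 12.3 TPM in Pou4f1KO, 28.99 TPM in the library labelled DKO and 6.40 TPM in control, with a log2 ratio of 0.85 in Pou4f1KO against control.

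Many markers of the hindbrain and neural tube were higher in Pou4f1KO, as were some Hox genes, but not all followed that pattern. Of 38 such markers 20 were at least 2-fold higher in Pou4f1KO than in control and 3 were lower, with a median log2 ratio of 1.10. Of all symbols 0.582% were higher and 1.03% lower. The 3 lower markers, named after their values were seen, were Pax2, Irx3 and Irx5. Lhx1 and Lhx2, also named after their values were seen, were past 2-fold higher in the libraries labelled Isl1CKO and DKO too. Their log2 ratios in the library labelled Isl1CKO against control were 2.88 and 1.39. At 1 TPM or more were 33 of the 38 in Pou4f1KO, against 13 in the library labelled Isl1CKO, 16 in the library labelled DKO and 14 in control. Their summed level was 336 TPM in the library labelled Isl1CKO, 467 TPM in Pou4f1KO, 349 TPM in the library labelled DKO and 344 TPM in control. Olig3, a factor of dorsal hindbrain and spinal progenitors, had 0.800 TPM in the library labelled Isl1CKO, 13.9 TPM in Pou4f1KO, 0.542 TPM in the library labelled DKO and 0.447 TPM in control. Atoh1, a factor of rhombic lip progenitors, had 0.413 TPM in the library labelled Isl1CKO, 5.51 TPM in Pou4f1KO, 0.351 TPM in the library labelled DKO and 0.191 TPM in control. Otp, a homeobox factor of brain and spinal neurons, had 5.52 TPM in Pou4f1KO and at most 0.306 TPM elsewhere. Sim1, a factor of ventral neural tube and hypothalamic neurons, was high in both libraries labelled as lacking Pou4f1, with 0.746 TPM in the library labelled Isl1CKO, 12.2 TPM in Pou4f1KO, 8.44 TPM in the library labelled DKO and 0.538 TPM in control. None of the 38 was listed at 0 in Pou4f1KO. Ptf1a, Pax7, Dbx1 and En1 were listed at 0 in the library labelled Isl1CKO, Pax7 and En1 in the library labelled DKO, and Dbx2 in control.

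In the library labelled DKO against Pou4f1KO, 20 of the 38 markers were lower and none higher, with a median of −1.05. In that comparison 0.666% of all symbols were lower. Against control the library labelled DKO had 4 higher and 4 lower, with a median of 0.06. There 0.602% of all symbols were higher and 1.39% lower. The part of hindbrain or neural tube cells in the Hox levels was not tested. In bulk tissue more cells of a type and more RNA per cell cannot be told apart.

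Other cell types were read in the same way. Of all symbols 1.03% were lower and 0.582% higher in Pou4f1KO than in control, and 1.39% lower and 0.602% higher in the library labelled DKO. In the library labelled Isl1CKO 0.368% were lower and 0.349% higher. Of 20 otic epithelium markers 13 were lower and 1 higher in Pou4f1KO than in control, and 11 were lower and 1 higher in the library labelled DKO. Of 13 markers of epithelium and ectoderm 9 were lower in Pou4f1KO and 9 in the library labelled DKO, against control, with none higher in either. Epcam is in both the otic and the epithelium list and is counted as lower in each. Of the otic markers, Sox2 is also in the hindbrain and neural tube list and Otx2 also among the segment regulators. In the library labelled Isl1CKO against control, 2 of the otic markers were lower and none was higher, with a median of −0.56, and none of the epithelium and ectoderm markers passed 2-fold, with a median of −0.68. The summed level of the 13 epithelium and ectoderm markers was 215 TPM in the library labelled Isl1CKO, 69.1 TPM in Pou4f1KO, 75.6 TPM in the library labelled DKO and 362 TPM in control, lowest in the 2 libraries labelled as lacking Pou4f1 and highest in control. Of 15 glial and neural crest markers 1 was higher in Pou4f1KO, with a median of 0.30. It was Tfap2b, a factor of neural crest and of dorsal hindbrain neurons, with 2.01 TPM in the library labelled Isl1CKO, 7.91 TPM in Pou4f1KO, 1.44 TPM in the library labelled DKO and 1.93 TPM in control. Of 20 mesenchyme markers none was higher and 1 lower in Pou4f1KO, with a median of −0.19. The library labelled Isl1CKO showed 1 of them lower and none higher than control, the median being −0.52. Against control the library labelled DKO showed 3 of them higher and 1 lower, the median being 0.36. Set against Pou4f1KO it showed 5 higher and none lower, the median being 0.60, where 0.384% of all symbols were higher. Between the libraries labelled DKO and Isl1CKO, 9 were higher in DKO and none lower, the median being 0.87. Of all symbols 0.519% were higher there. Of 14 spinal and posterior markers the 1 past 2-fold in Pou4f1KO against control was Evx1, which is also in the hindbrain list. The summed level of all 14 was 282 TPM in the library labelled Isl1CKO and 199 TPM in Pou4f1KO. It was 160 TPM in the library labelled DKO and 306 TPM in control. Most of that sum was Isl2, a LIM-homeodomain factor of motor and sensory neurons. Isl2 had 241 TPM in the library labelled Isl1CKO, 154 TPM in Pou4f1KO, 111 TPM in the library labelled DKO and 268 TPM in control. Its log2 ratio to control was past 2-fold in the library labelled DKO, at −1.27. Without Isl2 the other 13 summed to 41.1 TPM in the library labelled Isl1CKO, 44.8 TPM in Pou4f1KO, 48.6 TPM in the library labelled DKO and 37.7 TPM in control. Pan-neuronal markers had a median of 0.30 and CVG neuron markers one of 0.22 in Pou4f1KO against control. Of the 15 CVG neuron markers 2 were higher there and 1 lower, Pou4f1 itself. In the library labelled DKO 1 was higher and 4 were lower than in control, Pou4f1 among them, with a median of −0.29. In the library labelled Isl1CKO 1 was higher and 1 lower than in control. None of the 20 pan-neuronal, 14 endothelial and blood or 12 housekeeping genes passed 2-fold in Pou4f1KO, and of 10 visceral motor and epibranchial genes 1 was lower.

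**Figure D5:**
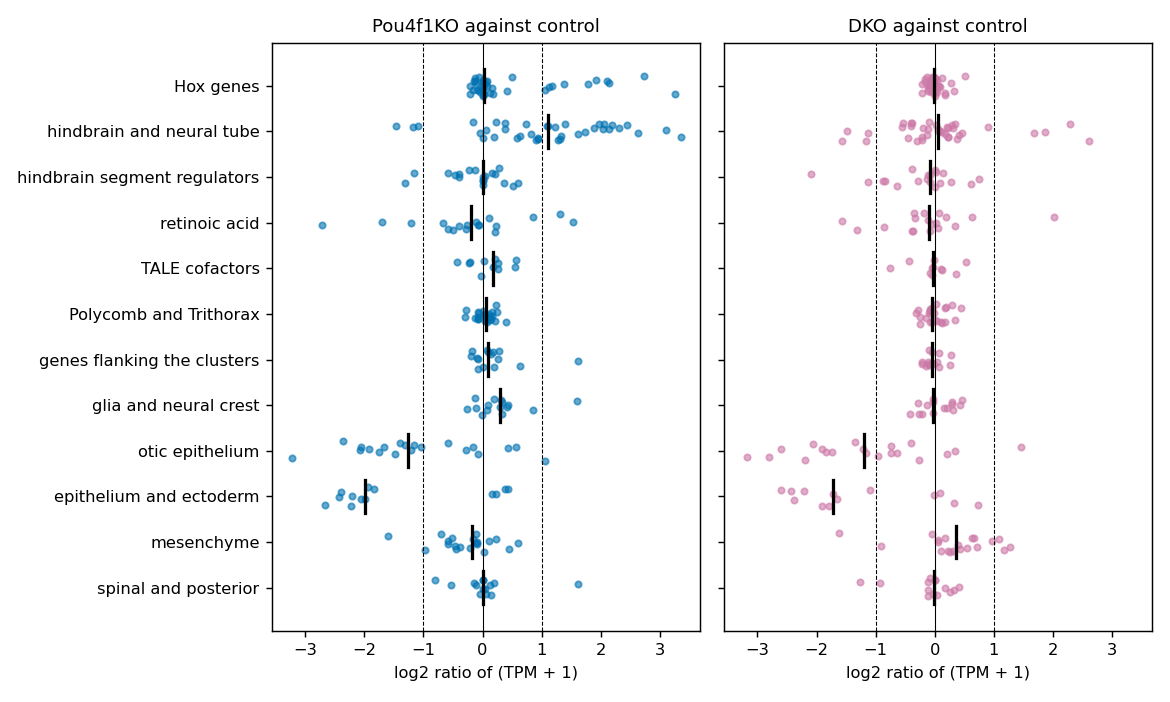
Log2 ratio of (TPM + 1) for each member of 12 gene lists in Pou4f1KO (left) and in the library labelled DKO (right) against control, with 1 point per gene, a black bar at the list's median and dashed lines at 2-fold. The hindbrain and neural tube list has a median of 1.10 on the left and 0.06 on the right, while 10 Hox genes lie beyond 2-fold on the left and none on the right.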

How the data were processed

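Total RNA of dissected ganglia was made into strand-specific libraries and sequenced, per the labels' protocols. Trimmomatic, FastQC, HISAT2, SAMtools, StringTie and the mm10 build are named in the submitters' processing notes; their versions, settings and order, the annotation and the strand setting were not given in the sources used here. Per the file headers, each deposited gene table gives coverage (mean reads per base), FPKM and TPM per row. These are the authors' values, and read counts were not used here. Depth was estimated as the most frequent ratio of coverage to FPKM among rows above 1 FPKM. Between 55.2% and 55.7% of those rows lay at that ratio, depending on the library.

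Rows that share a symbol were summed, giving 25239 symbols. The log2 ratio of (TPM + 1) was computed for every symbol with no expression filter and called at 2-fold. The pseudocount of 1 understates ratios of low genes. With 1 library per genotype there was no test. The code that makes the calls was checked on simulated data. The Hox genes and all lists were chosen with earlier results of these data known. Every Hox gene at 1 TPM or more in a library was named with its values, as was each non-coding Hox, Hotair, Hottip, Mir10, Mir196 or Mir615 gene in a cluster at that level; from other lists at most 4 genes were named, those past 2-fold first and otherwise those at 5 TPM or more with the largest ratios. Markers listed at 0, genes named for being in several lists and genes said to be named after their values were seen stand outside that rule. Exon overlaps came from GENCODE M21, in which all 39 genes were found, and promoters from RefSeq. Values of some genes are not reported here. Alternatives were a pseudocount of 0.1 TPM, FPKM, 3 scalings, a filter at 1 TPM and a 1.5-fold call. Python 3.11.15, pandas 2.3.3, numpy 2.4.6 and matplotlib 3.10.9 were used.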

Additional observations from a re-analysis of the deposited data

Results flagged for a closer look

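For several Hox genes the difference tied to one label had opposite signs in the 2 backgrounds, with at least 1 of them past 2-fold. Each value below is the log2 ratio in the mutant background minus that in the other background, and none of these differences was tested, since each genotype is 1 library. For either label this difference is by arithmetic the departure from additivity given above. A gene listed under both labels therefore has the same value in each, which is not a further observation.

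For the Pou4f1 label, the difference was −2.16 at Hoxa3, −2.01 at Hoxa4, −1.51 at Hoxb3, −1.30 at Hoxb1 and −1.09 at Hoxc5. At Hoxa3 the library labelled DKO had a log2 ratio of −0.24 against that labelled Isl1CKO, and Pou4f1KO had 1.92 against control. The negative ratios between the libraries labelled DKO and Isl1CKO were small, from −0.24 to −0.02.

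For the Isl1 label, read as DKO against Pou4f1KO and as Isl1CKO against control, the same arithmetic gives −2.16 at Hoxa3, −2.01 at Hoxa4, −1.51 at Hoxb3 and −1.09 at Hoxc5, and further −2.01 at Hoxb4 and −1.96 at Hoxd4. The ratios of the library labelled Isl1CKO to control at these 6 genes lay between 0.00 and 0.23. The opposite sign thus rests on values near 0 on one side, and all of these values share the single Pou4f1KO library.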

How the results depend on the processing

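No paired analysis was possible because each genotype is 1 library, and for the same reason no library could be left out. No ratio past 2-fold reversed its direction under any alternative that was run. The ratio of summed Hox TPM in the library labelled Isl1CKO against control, near 0 throughout, had the other sign (−0.13) under pan-neuronal scaling. With a pseudocount of 0.1 TPM, low genes passed 2-fold: 2 Hox genes were higher and 3 lower in the library labelled DKO against that labelled Isl1CKO, 1 was higher in DKO against Pou4f1KO, 1 was higher and 2 lower in DKO against control, 1 was higher and 4 lower in Isl1CKO against control, and 3 were lower in Pou4f1KO against control. These are 1 to 4 of 39 genes, where 2.63% to 4.52% of all symbols were past 2-fold in each direction of a comparison at that pseudocount. With FPKM and a pseudocount of 1, whose values are smaller, 6 Hox genes were higher in Pou4f1KO than in control, where 0.281% of all symbols were. Of the 6 settings that change a ratio (as reported, both of these and 3 scalings), Hoxb2 and Hoxc5 were past 2-fold in Pou4f1KO against control in 4, Hoxa4 and Hoxb1 in 5, and Hoxa3, Hoxb3, Hoxb4, Hoxc4, Hoxd3 and Hoxd4 in all 6. The log2 ratio of summed Hox TPM stayed between 1.18 and 1.49 in Pou4f1KO against control, and between −1.25 and −1.05 in DKO against Pou4f1KO. The departure from additivity was past 2-fold below 0 for 7 to 13 Hox genes over its alternatives, which were chosen after seeing the data and put 0.258% to 4.47% of all symbols there. Scaling to equal pan-neuronal genes moved the median of all symbols that reach 1 TPM to −0.25 in Pou4f1KO against control, so that the 0.85 of Hoxb2 there is to be read against that shift. Library depth leaves genes below about 1 TPM with a coverage under 5.93 reads per base, so their ratios are uncertain.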
